A study of Rattus norvegicus with 12 samples.

Results

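The Egr genes code for 4 zinc finger transcription factors, Egr1 to Egr4, and the Nab genes for their 2 corepressors, Nab1 and Nab2. Their members on the array were every probe set (the set of short probes that reads 1 transcript) whose platform annotation gives exactly 1 gene symbol, equal to 1 of these 6 names. That rule found 9 of the 31042 probe sets that are not array controls, with 1 probe set each for Egr1, Egr3 and Nab2 and 2 each for Egr2, Egr4 and Nab1. RNA came from the forebrain of 12 male Long Evans rats, all 6 weeks old and each kept in a cage of its own for some days beforehand, and each animal was measured on 1 Affymetrix array. The control group was 6 animals that stayed in standard laboratory cages. The exposed group was 6 animals that spent 3 hours in unfamiliar surroundings furnished with objects of varied shape and colour. No transgene, drug or surgery is named in the labels of either group. They do not say whether animals of a group shared a litter or a day, so p-values measure the spread between these animals.

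Egr proteins bind GC-rich sites in DNA through their zinc fingers and activate transcription there. Their genes are immediate early genes, which neurons transcribe within minutes of synaptic activity through the ERK kinases and the factors SRF, Elk1 and CREB, without making new protein first. Egr1, also called zif268, is much used in the forebrain as a sign that neurons were recently active. Nab1 and Nab2 bind most Egr proteins and turn them from activators into repressors. Nab2 is itself known as a target of Egr proteins, so the pair is described as a feedback loop.

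Upstream sequence is shown because 3 of the 4 Egr genes rose in these animals. RefSeq (rat build GRCr8) gave the 250 bases before the start of 5 of the 6 genes, and both strands were searched for 4 motifs. These were the CArG box that SRF binds, the full cAMP response element (TGACGTCA), its core (TGACG, part of the full element) and the Egr site (GCGNGGGCG). A match is a description of letters and not a site. Egr1 held 2 CArG boxes and 2 cores, Egr2 held 1 CArG box and 1 core, and Egr4 held 2 cores. Nab1 held 3 Egr site matches and 1 core, and Nab2 held none of the 4. Over all 33469 promoters of that table, 1.50% held a CArG box, 1.59% the full element, 18.2% its core and 4.29% the Egr site, and both a CArG box and a core stood in 0.23%. The whole stretch of Egr1 (chr18:26736828-26737077, plus strand) and of Egr4 (chr4:119607818-119608067, minus strand) follow, 5′ to 3′, with CArG boxes and cores in capitals.
Egr1: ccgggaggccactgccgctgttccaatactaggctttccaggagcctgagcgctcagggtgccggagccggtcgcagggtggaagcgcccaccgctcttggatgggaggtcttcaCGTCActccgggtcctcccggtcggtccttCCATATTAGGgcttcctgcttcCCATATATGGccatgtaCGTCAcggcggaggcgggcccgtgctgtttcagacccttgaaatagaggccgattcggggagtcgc
Egr4: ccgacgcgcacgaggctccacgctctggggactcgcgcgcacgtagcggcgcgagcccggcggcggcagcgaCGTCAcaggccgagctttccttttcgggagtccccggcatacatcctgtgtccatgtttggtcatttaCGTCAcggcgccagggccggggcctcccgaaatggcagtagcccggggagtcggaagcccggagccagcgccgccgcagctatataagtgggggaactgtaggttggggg

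In Egr1 and Egr2 a CArG box and a core stood at the same distance from the start, from 83 to 74 and from 66 to 62 bases before it, with 7 bases between them. The 30 bases around them (87 to 58 before the start) were identical at 22 positions. They are shown for Egr1 (chr18:26736991-26737020, plus strand) and Egr2 (chr20:21054499-21054528, minus strand), with CArG box and core in capitals. In the orientation shown, this order and spacing occurred in 3 of the 33469 promoters, those of Egr1, Egr2 and Dusp5.
Egr1 window: cttcCCATATATGGccatgtaCGTCAcggc
Egr2 window: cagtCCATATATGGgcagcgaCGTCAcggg

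After the exposure, RNA of 3 of the 4 Egr genes and of 1 of the 2 Nab genes was higher. Egr2 rose 12.4-fold, Egr4 2.43-fold and Egr1 2.41-fold, and the corepressor gene Nab2 rose 1.45-fold (6 animals per group). Egr3 and Nab1 did not pass the test. Changes are given as exposed minus control in log2 intensity. Except for pairs of members, their standard errors come from limma, a linear model fitted to all 31042 probe sets. Called means a Benjamini-Hochberg adjusted p under 0.05. Of the 9 member probe sets 5 were called higher and 0 lower, where 1.97% of all probe sets were called higher and 0.599% lower. In these 5 every exposed animal lay above every control, as in 1.98% of all probe sets, and in 0 members every exposed animal lay below every control (0.725% of all). At an unadjusted p under 0.05 stood 13.2% of all probe sets. With the brightest probe set of each gene, 4 of 6 members were called higher, against 2.62% of 14217 genes. The median log2 change was 0.90 over the 6 members and 0.00 over all genes. Low intensities were raised to a floor, and 5216 of the 31042 probe sets were at it on all arrays. These have a change of 0 and cannot be called. The shares and the median given for all probe sets or genes include such probe sets. In tissue RNA, more cells with a transcript and more RNA per cell cannot be told apart. Every array's median intensity lay between 235 and 245. Exposed animals 3 and 5 correlated least with the rest of their group (median 0.995 each, against 0.997 for each other exposed animal). With animals 3 and 5 left out, 5 member probe sets were also called higher. RNA quality was read from the Gapdh and beta-actin control probe sets, as log2 at the 3 prime end minus the 5 prime end. A larger difference means less signal from the 5 prime end, so it stands for poorer RNA. The difference averaged 0.39 ± 0.05 (SD, n = 6) in control and 0.45 ± 0.07 in exposed animals (exact permutation p = 0.0823). It was largest in exposed animal 3, at 0.59. With this difference as a covariate 5 member probe sets were still called higher.

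**Figure D1:**
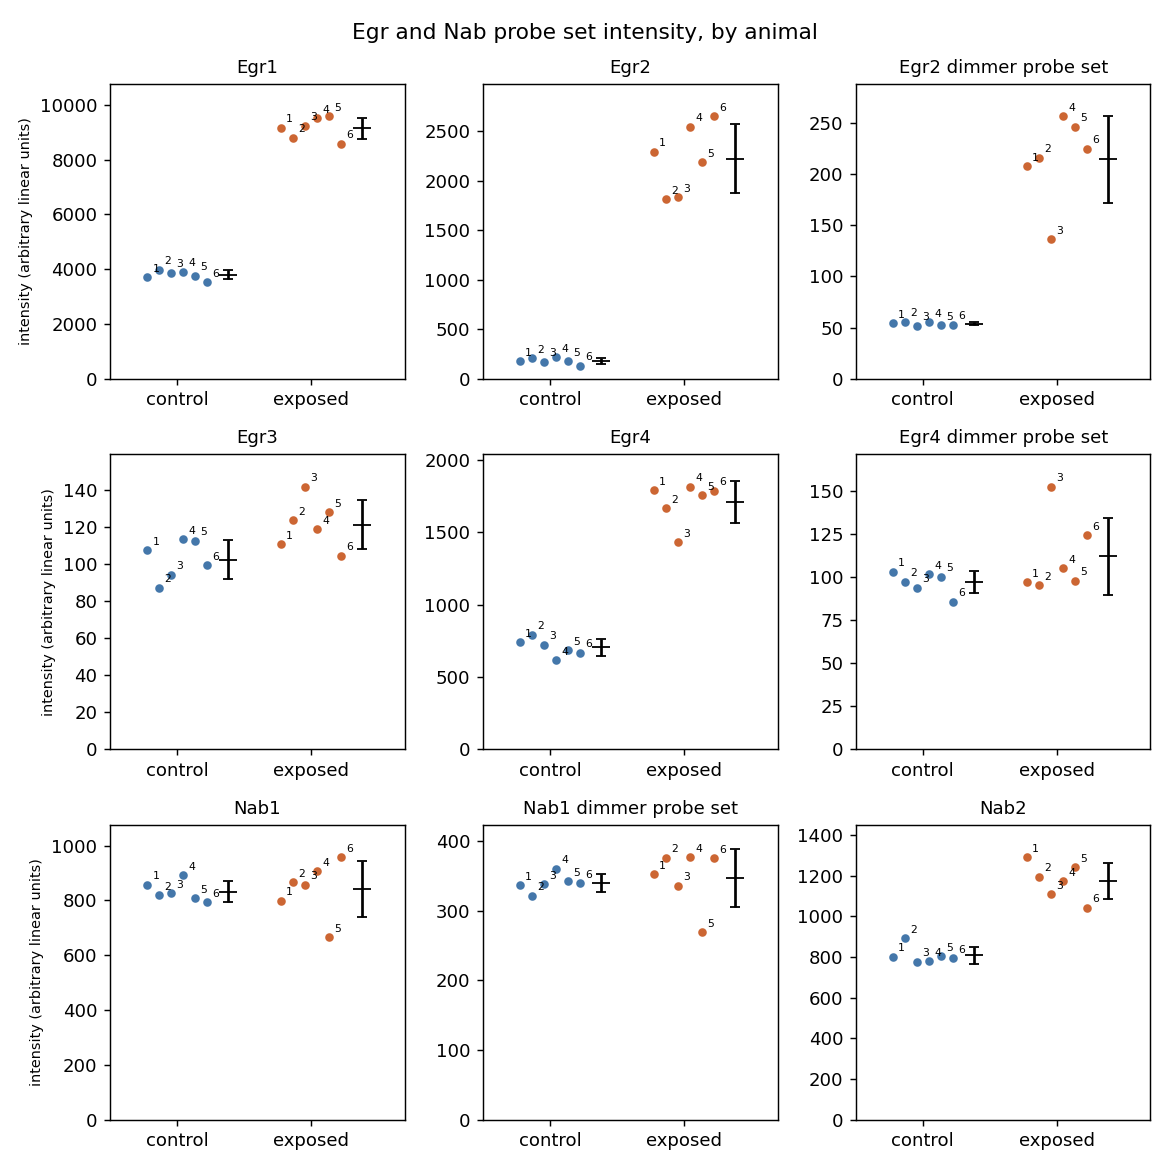
Deposited intensity (arbitrary linear units, axes from 0) of the 9 member probe sets in 6 control (blue) and 6 exposed (orange) animals, numbered as in the labels, with the mean and SD of each group in black. The groups do not overlap for Egr1, Egr4, Nab2 and both Egr2 probe sets, and they overlap for Egr3, the dimmer Egr4 probe set and both Nab1 probe sets.

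Egr2, also called Krox20 and known for its part in hindbrain patterning and in myelination by Schwann cells, had the largest rise of any gene measured. Its intensity ran from 131 to 217 in control animals (median 175) and from 1813 to 2647 in exposed animals (median 2237). The lowest exposed animal was thus far above the highest control, and the groups did not overlap. The log2 change was 3.63 ± 0.14 (95% interval 3.33 to 3.93, adjusted p = 2.06e-07 in limma). Against the control mean, single exposed animals stood 10.2-fold to 14.9-fold higher, animal 2 lowest and animal 6 highest. Its SD on the log2 scale was 0.26 in control and 0.23 in exposed animals.

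Egr2 had a second, dimmer probe set. It read between 51.9 and 55.6 in control animals (median 53.7), at the edge of the floor of 53.8 to which low intensities were raised, with 3 of 6 control arrays at or below it. In exposed animals it read between 136 and 257 (median 221). All 6 exposed animals were above every control, and animal 3 was the lowest. Its log2 change was 1.95 ± 0.13 (adjusted p = 2.55e-05 in limma). Because its control level lies at the floor, this change depends on where the floor is set, and it was 0.53 with the floor at the 40th percentile of intensities in place of the 20th. For the same reason the 2 probe sets give no measure of how far their responses differ.

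Egr1 lay between 3516 and 3989 in control animals (median 3820) and between 8587 and 9583 in exposed animals (median 9208). The exposed animals formed a tight group well above the controls. Egr1 thus rose by 1.27 ± 0.04 on the log2 scale (95% interval 1.19 to 1.35, adjusted p = 4.67e-08 in limma). It was the 9th largest rise among the 14217 genes. Egr1 was steady within each group, with an SD of 0.07 in control and 0.06 in exposed animals on the log2 scale. Against the control mean, single exposed animals stood 2.27-fold to 2.53-fold higher.

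Egr4, also called NGFI-C, lay between 618 and 792 in control animals (median 704) and between 1432 and 1815 in exposed animals (median 1774). Of the exposed animals, 5 lay at 1666 or above and animal 3 stood below them at 1432, still above every control. Egr4 rose by 1.28 ± 0.07 on the log2 scale (95% interval 1.12 to 1.44, adjusted p = 6.77e-06 in limma), the 8th largest rise among genes. The dimmer Egr4 probe set read between 85.8 and 103 in control and between 95.5 and 153 in exposed animals. Its log2 change was 0.19 ± 0.11 (adjusted p = 0.561 in limma), with 3 of 6 exposed animals above every control. Exposed animal 3, at 153 where the next read 125, carried much of this value, which was 0.10 without that animal, 0.07 with RNA quality as a covariate and 0.01 with the higher floor. The change minus that of the brighter probe set was -1.09 ± 0.16, a difference fitted over all 6609 such pairs of the array (adjusted p = 0.00657 in limma, with 0.908% of pairs called in either direction).

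Egr3, a member known in muscle spindles as well as in neurons, was dim. It read between 87.1 and 113 in control animals (median 103) and between 104 and 142 in exposed animals (median 121). The groups overlapped, with 4 of 6 exposed animals above every control and animal 3 the highest. The log2 change was 0.24 ± 0.09 (95% interval 0.06 to 0.43) and did not pass over all probe sets (unadjusted p = 0.0160, adjusted p = 0.210 in limma). In an exact permutation test (two-sided, 6 of 12 animals relabelled in all ways) Egr3 had p = 0.0216, and each of the 5 called probe sets had p = 0.00216, the smallest this test allows. No array read more than 142 at the Egr3 probe set, against the floor of 53.8. Without exposed animals 3 and 5 the log2 change was 0.17 (adjusted p = 0.460 in limma).

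Nab2, the corepressor gene that Egr proteins are known to induce, lay between 777 and 891 in control animals (median 797) and between 1042 and 1289 in exposed animals (median 1184). The groups did not overlap, although control animal 2 stood apart at 891 from the other controls, which reached 803. Nab2 rose by 0.54 ± 0.05 on the log2 scale (95% interval 0.42 to 0.65, adjusted p = 0.000301 in limma), the 69th largest rise among genes. Single exposed animals stood 1.29-fold to 1.60-fold above the control mean, animal 1 highest and animal 6 lowest.

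Nab1, the related corepressor gene, was measured by 2 probe sets. The brighter one lay between 792 and 892 in control animals (median 822) and between 665 and 957 in exposed animals (median 861). The exposed animals lay on both sides of the controls, 2 above them all and 1, animal 5, below them all. The log2 change was 0.01 ± 0.08 (95% interval -0.16 to 0.18, adjusted p = 1.00 in limma). The dimmer probe set gave 0.02 ± 0.08 (95% interval -0.15 to 0.20), and the change of the 2 probe sets differed by 0.02 ± 0.04 (adjusted p = 0.940 in limma). Animal 5 was the lowest exposed animal at both, at 665 and at 269, where no other exposed animal was under 799 and 335. The log2 SD at the brighter probe set was 0.06 in control and 0.18 in exposed animals. The array of that animal is 1 of the 2 that correlated least with their group, and its part in this spread was not tested.

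**Figure D2:**
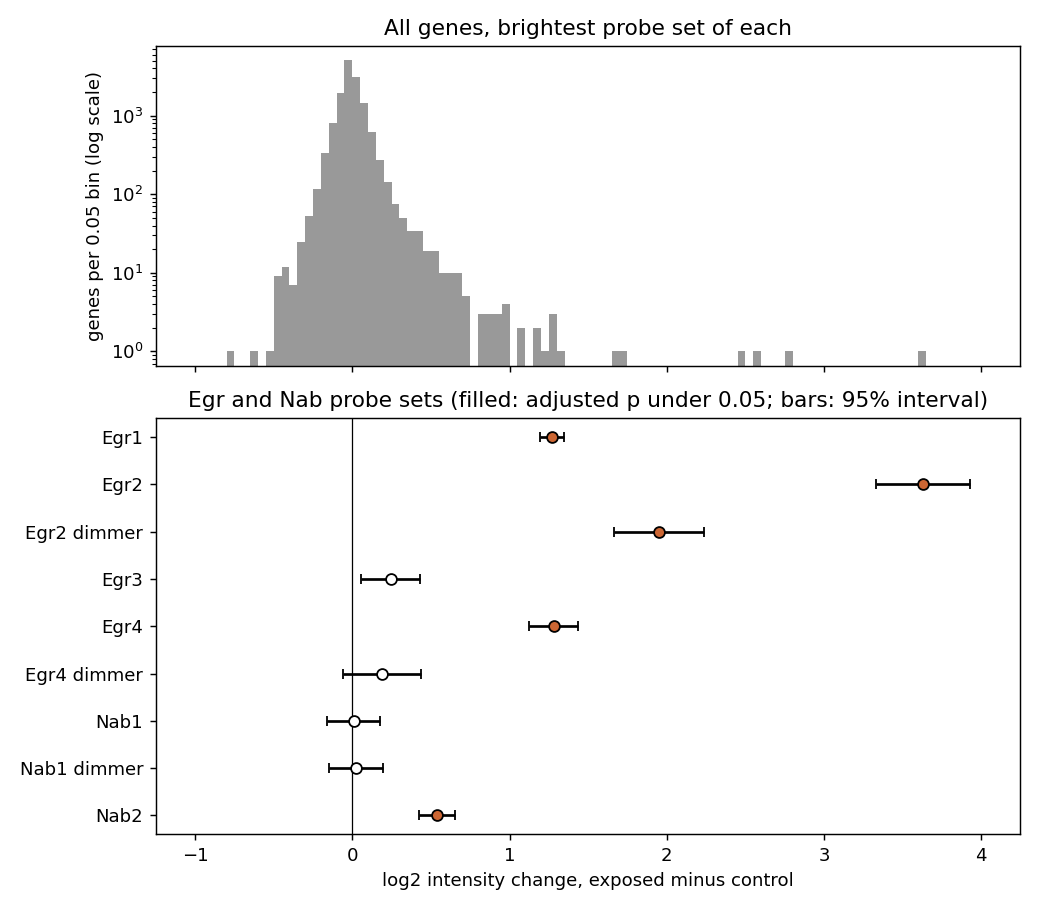
Top, number of genes (log scale) by log2 intensity change, exposed minus control, in 14217 genes, 1 probe set each. Bottom, the same change for the 9 member probe sets with its 95% interval, where filled points have an adjusted p under 0.05 in limma. Egr2 at 3.63 is the rightmost gene, Egr1 and Egr4 lie near 1.27 and 1.28, and the intervals of Nab1 span 0.

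The members changed by unequal amounts. For each pair of the 6 genes the log2 difference between their brightest probe sets was taken in every animal and compared between the groups. Standard errors of pairs come from the variance of this difference within each group, without limma. Of the 15 pairs, 13 passed in the exact permutation test (two-sided), with p adjusted by Benjamini-Hochberg over the 15 pairs. Egr2 rose by more than Egr1, by 2.36 ± 0.13 on the log2 scale (exact p = 0.00216, adjusted 0.00271, with no overlap of the groups). Egr1 rose by more than Nab2, by 0.73 ± 0.05, and Egr4 by more than Nab2, by 0.74 ± 0.07 (exact p = 0.00216 for each, adjusted 0.00271). The rise of Nab2 exceeded the change of Nab1 by 0.53 ± 0.12 (exact p = 0.00216, adjusted 0.00271). These are differences in measured intensity change, and whether the probe sets respond alike to RNA was not tested.

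The 2 pairs that did not pass were Egr4 and Egr1, whose changes differed by 0.01 ± 0.08 (exact p = 0.885, adjusted 0.885), and Egr3 and Nab1, which differed by 0.24 ± 0.13 (exact p = 0.0952, adjusted 0.102). Pairs with Egr2 or Egr4 depend on the choice of probe set. An average gives the dimmer probe sets of these genes, with signal near the floor, the same weight as the brighter ones. When all probe sets of a gene were averaged, Egr4 minus Egr1 was -0.54 (exact permutation, adjusted p = 0.00271) and Egr2 minus Egr1 was 1.52 in place of 2.36. Egr4 minus Nab2 was then 0.20 in place of 0.74 (exact permutation, adjusted p = 0.0464). Egr4 minus Egr3 was 0.49 in place of 1.04, and Egr4 minus Nab1 was 0.72 in place of 1.27. The Egr3 and Nab1 pair passed without exposed animal 6 (difference 0.32, exact permutation, adjusted p = 0.00999). The change of Nab2 exceeded that of Egr3 by 0.30 ± 0.11 (exact p = 0.0390, adjusted 0.0450). That call was lost in 8 of the 12 tests with 1 animal left out, those without control 1, 4 or 5 or exposed 1, 2, 4, 5 or 6 (exact permutation, adjusted p 0.0549 to 0.0774), and with animals paired by number (adjusted p = 0.144).

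**Figure D3:**
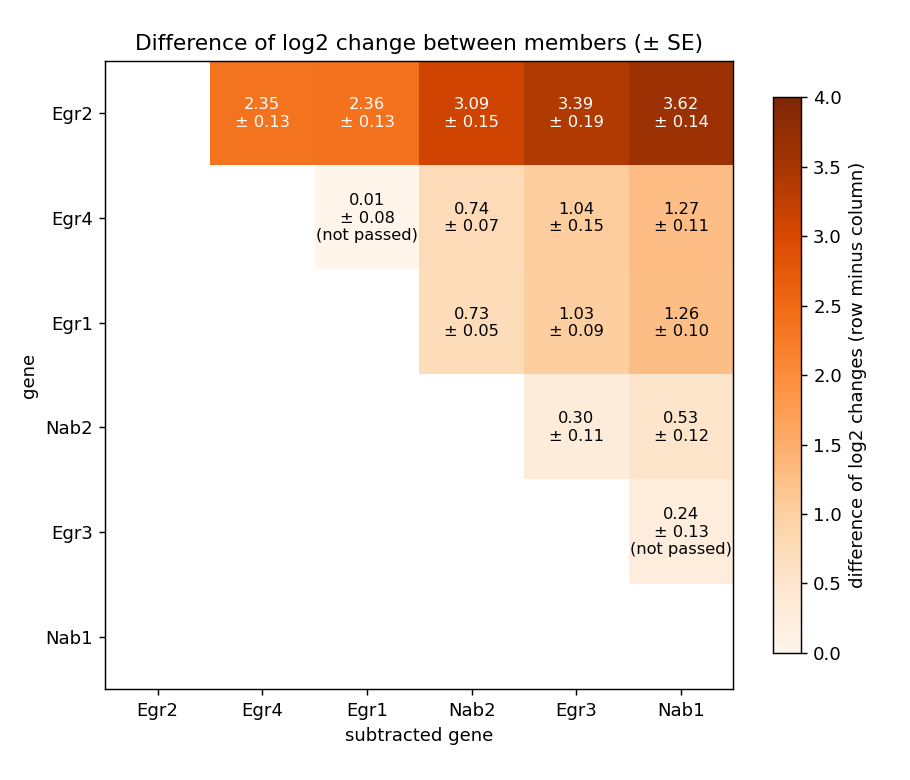
Difference of the log2 change between members, row gene minus column gene at their brightest probe sets, with its SE over 6 control and 6 exposed animals; darker cells are larger differences. Egr2 stands above every other member by 2.35 or more, while Egr4 minus Egr1 (0.01) and Egr3 minus Nab1 (0.24) did not pass.

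Genes with a similar pattern over the 12 animals were found by the root mean square difference in log2 intensity, each gene set to 0 at its control mean. Nearest to Egr1 among 14216 other genes were the orphan receptor gene Nr4a3 (0.10), the cyclooxygenase gene Ptgs2 (0.12) and Egr4 (0.12). Nearest to Egr4 were Nr4a3 (0.08), Ptgs2 (0.11) and Egr1 (0.12). The measure includes the size of the rise, so the genes nearest to Egr1, Egr4 or Nab2 had like changes by choice. Egr1, Egr4, Nr4a3 and Ptgs2 rose by 1.26 to 1.32 on the log2 scale. Nearest to Egr2 were the AP-1 gene Fos (0.65), Arc, which codes for a synaptic protein (0.81), and Fosb (0.88), all far off since no gene rose as much. Nearest to Nab2 were the mitochondrial carrier gene Slc25a25 (0.08), the Hsp40 gene Dnajb5 (0.09) and the heat shock gene Hspa1a (0.09), with log2 changes from 0.49 to 0.60.

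Among 16 measured immediate early factors outside the family, 11 were called higher and 0 lower, with a median log2 change of 0.89. Over all genes 2.62% were called higher and 0.844% lower. The smallest p-values were those of Ier5 (0.95 ± 0.03, adjusted p = 1.93e-07 in limma), Nr4a3 (1.32 ± 0.05, adjusted p = 2.87e-07), Fos (2.77 ± 0.16, adjusted p = 8.65e-06) and Fosb (2.46 ± 0.17, adjusted p = 2.82e-05). Atf3 and Maff were at the floor on all 12 arrays and could not be called. Fosl1 (0.24 ± 0.06, adjusted p = 0.0702 in limma), Jun (-0.01 ± 0.04) and Jund (-0.02 ± 0.10) did not pass either. Jun and Jund were bright, at 1681 and 4863 on average in control animals. The Egr genes that passed thus lay within a wider group of early genes that were higher.

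The pathway that leads to Egr transcription was measured by 14 genes, which code for the kinases before and after ERK, for SRF and its partners, for CREB and for Mef2 factors. Of these 1 was called higher and 0 lower, with a median log2 change of 0.02. With 2.62% of all genes called higher, 1 call among 14 genes does not set the list apart. The called gene was Srf, whose protein binds the CArG box, at 0.28 ± 0.04 (1.22-fold, adjusted p = 0.00191 in limma), with 6 of 6 exposed animals above every control. The other 13 genes did not pass.

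Of 21 measured genes described as targets of Egr proteins, 1 was called higher and 0 lower, and the median log2 change was 0.02. With 2.62% of all genes called higher, 1 call among 21 genes does not set the list apart. The called gene was Arc (2.57 ± 0.16, adjusted p = 1.91e-05 in limma), which went from 642 ± 169 (SD, n = 6) in control to 3773 ± 623 in exposed animals. The other 20 included the synaptic genes Syn1, Syn2 and Snap25 and the kinase activator gene Cdk5r1, and none passed. Among them Plau was at the floor on all arrays and could not be called. Arc is also an immediate early gene.

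Of 12 measured genes of the NuRD complex, a chromatin remodeller that Nab2 recruits, 0 were called in either direction in limma, and the median log2 change was -0.03. The smallest p was that of the histone deacetylase gene Hdac1 (-0.22 ± 0.10, unadjusted p = 0.0514, adjusted p = 0.384), so none had an unadjusted p under 0.05. Of 9 zinc finger factors that also bind GC-rich DNA 0 were called in limma, with a median of 0.00. Wt1 and Sp3 were at the floor on all arrays and could not be called, and the median falls on such a gene. Klf9 had the smallest p (0.14 ± 0.04, unadjusted p = 0.00253, adjusted p = 0.0752), and in 4 alternatives of the processing 1 gene of this list was called higher. Over all genes 2.62% were called higher and 0.844% lower.

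**Figure D4:**
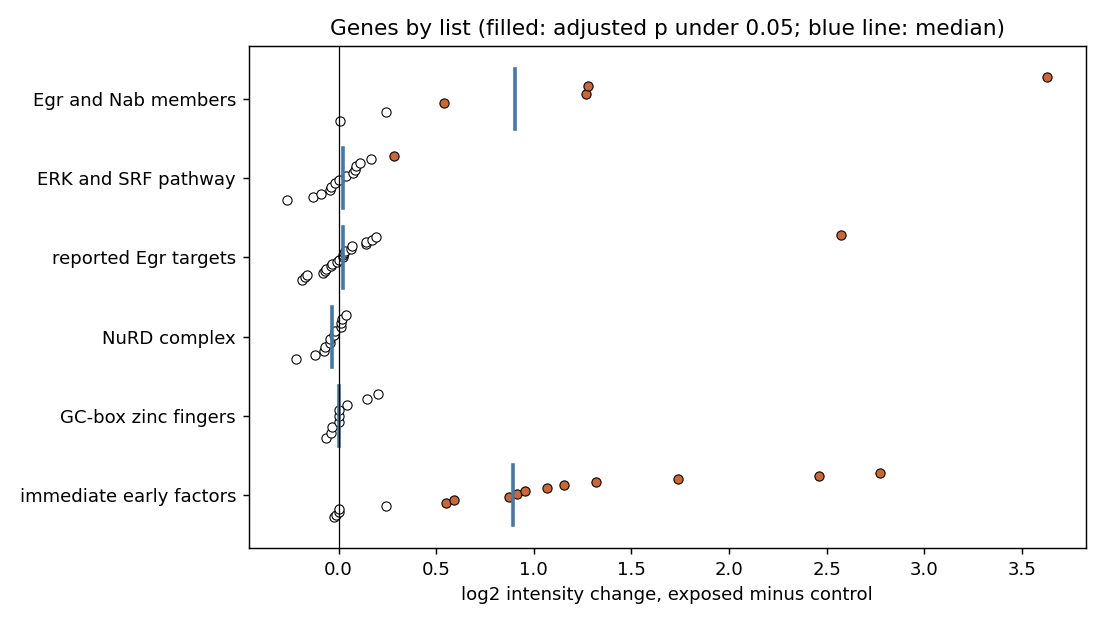
Log2 intensity change, exposed minus control, of genes (brightest probe set) in the Egr and Nab set and in 5 lists; filled points have an adjusted p under 0.05 in limma and blue lines mark medians. The immediate early factors lie to the right with a median of 0.89, while the other 4 lists centre near 0 with Arc (2.57) and Srf (0.28) as the called genes.

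Marker genes bear on the makeup of the samples. Neuron markers summed to intensities of 59445 to 62389 in control and 59304 to 61997 in exposed animals, and 0 of 9 were called in limma. Of the 5 measured forebrain markers, which include the cortical gene Tbr1 and the striatal gene Drd2, none was at the floor on all arrays and 0 were called. Tbr1 had the smallest p of them (-0.25 ± 0.11, unadjusted p = 0.0473, adjusted p = 0.368 in limma). At Tbr1, 3 of 6 exposed animals were below every control, and 2 of the 5 markers had a positive change. Of the Schwann cell markers, a cell type where Egr2 is known to act, 3 were analysed here, and Pmp2 was at the floor on all arrays. Prx read 149 on average in control and 153 in exposed animals, and Sox10, which oligodendrocytes also express, 899 and 871, so these markers say little of Schwann cells. T cells also express Egr2, and of their 6 markers Cd3d and Cd3g were at the floor on all arrays; the sum was 562 to 619 in control and 564 to 610 in exposed animals. Against 0.844% of all genes, 1 of the 5 measured endothelial markers was called lower, the transporter gene Slco1a4 (-0.29 ± 0.04, adjusted p = 0.00364 in limma). Their sum was 6022 to 6561 in control and 5468 to 6128 in exposed animals, and its part in the changes of the Egr genes was not tested. No astrocyte, oligodendrocyte, microglia or blood marker was called.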

How the data were processed

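The authors deposited linear intensities, 1 for each probe set of an array, which run from 12.6 to 34828. Their background correction, probe summary and normalization are not given in the sources. The array medians lay within 0.06 of each other on the log2 scale, so no further normalization was applied. Values under the 20th percentile (53.8) were set to it as a floor, and log2 was taken. The 57 array control probe sets were left out. The group was the only term in limma 3.58.1 (R 4.3.3; lmFit, then eBayes with a mean-variance trend), with Benjamini-Hochberg adjustment across 31042 probe sets. Of these 5216 were at the floor on all arrays.

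Gene names are those of the platform annotation, checked through the Entrez gene ID in RefSeq's rat table (0 symbols changed). The brightest probe set of a gene has the highest mean log2 intensity over all arrays. Precision is limited by having 6 arrays per group. The text names all 9 member probe sets, of each list up to 4 called genes with the smallest p (or the gene with the smallest p where none was called), and the 3 genes most like each called member. Dusp5, Fosl1, Jun, Jund and list members named without a value were chosen after their values were seen. The members and lists were chosen with earlier results of these data known. The code of the model was run on simulated data with independent normal noise at each probe set. That setting has no effects shared within an array or between animals, so it says nothing of how well the model suits these animals.

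Replicate numbers 1 to 6 occur in both groups. Deviations from the group mean correlated from -0.08 to 0.16 between animals of the same number, so the numbers were not taken as pairs.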

Additional observations from a re-analysis of the deposited data

Results flagged for a closer look

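The gap between 1 animal and the nearest other was taken on the log2 scale, as a share of the group's range on that scale. Intensities are printed below on the linear scale, where the shares differ and were not tested. In 4 of the 18 sets of 6 animals tested (9 probe sets in 2 groups), the log2 share was above Dixon's 95% critical value. Chance alone gives about 1 in 20. Exposed animal 3 was the lowest of its group at the dimmer Egr2 probe set, at 136 where the next read 208 (gap 0.668 of the range). It was also the lowest at the brighter Egr4 probe set, at 1432 where the next read 1666 (0.638). Exposed animal 5 was the lowest at the dimmer Nab1 probe set, at 269 where the next read 335 (0.658). Control animal 2 was the highest for Nab2, at 891 where the next read 803 (0.761). Without exposed animals 3 and 5, a choice made after seeing the data, the log2 change was 2.05 at the dimmer Egr2 probe set, 1.33 at the brighter Egr4 probe set and 0.12 at the dimmer Nab1 probe set, with the last still not passing (adjusted p = 0.128 in limma).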

How the results depend on the processing

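Alternatives were quantile normalization, median centring, a filter that drops the dimmest 40% of probe sets, other floors (10th or 40th percentile), no variance trend, the replicate number as a block, an RNA quality covariate (3 prime minus 5 prime control probe sets), animals numbered 1 to 3 against 4 to 6 as a term, each animal left out in turn and, added after seeing the data, exposed animals 3 and 5 left out. Egr1, Egr2, Egr4 and Nab2 kept their direction and their call in limma under all 22 of them, with log2 changes of 1.25 to 1.29, 3.54 to 3.73, 1.24 to 1.33 and 0.51 to 0.57. The dimmer Egr2 probe set was dropped by the filter and kept its call in the other 21. Egr3 passed in none (adjusted p 0.130 to 0.480) and has no value with the filter, which drops it, or with the floor at the 40th percentile, where every array is at it. The change of Nab1 ran from -0.031 to 0.074 with 1 animal left out, that of its dimmer probe set from -0.0010 to 0.10, and the difference between the 2 from -0.0033 to 0.031. Egr4 minus Egr1 ran from -0.036 to 0.063 with 1 animal left out and was -0.0024 with quantile normalization and -0.54 with the mean of all probe sets. With the replicate block, 359 probe sets were called higher and 76 lower in place of 610 and 186, 5 member probe sets were still called higher, and 12 pairs of members differed in place of 13. With the RNA quality covariate 498 were higher and 72 lower. Without exposed animals 3 and 5, 106 were lower, and with 1 animal left out 103 to 182. In the list of GC-rich zinc finger factors 1 gene was called higher with quantile normalization, the filter, the RNA quality covariate or the number sets as a term. Signal near the floor limits what can be said of Egr3 and of the dimmer Egr2 and Egr4 probe sets.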

Other observations

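The promoter of Dusp5, a phosphatase gene that acts on ERK, was the other one with the CArG box and core in the order and spacing of Egr1 and Egr2. Its log2 change was 1.20 ± 0.08 (2.30-fold, adjusted p = 2.76e-05 in limma). Of 44 measured genes with both a CArG box and a core in the 250 bases before the start, 4 were called higher (9.09%) and 0 lower. These were Egr2, Egr1, Dusp5 and Srf, and 2 of them are members of the Egr family. A CArG box alone or with other motifs stood before 159 measured genes, of which 5 were called higher (3.14%), and a core before 3133, of which 123 were (3.93%). Over all 11733 measured genes whose promoter was searched, 2.70% were called higher. The pair of motifs was chosen after it had been seen in Egr1 and Egr2, which were known to be higher. These 2 of the 4 calls were therefore given in advance and raise the share of 9.09%, which was not tested.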
